A study of Mus musculus with 3 samples.

Results

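Skeletogenic transcription factors were followed through first molar development in the mouse, over the probe sets (groups of array probes that read 1 transcript) annotated with Runx1, Runx2, Runx3, Sp7 or Sox9 as their only gene symbol. These are 4 genes with a probe set, of 5 sought and of 18194 genes named singly in the annotation. The platform annotation gave 12 such probe sets of 45101 on the array, 6 for Runx1, 2 for Runx3, 1 for Sp7 and 3 for Sox9. None was listed for Runx2 alone, so Runx2 expression was not analysed here. The samples were dental papillae, the mesenchymal cores of tooth germs that become pulp and odontoblasts, from ICR mice at embryonic day 16 (E16), embryonic day 18 (E18) and postnatal day 3 (P3). ICR is an outbred strain, and the labels give no genetic change or treatment at any stage. Papillae were separated with enzymes from lower first molar germs, and each RNA sample pooled over 20 of them and was hybridised to 1 array. With 1 array per stage there was no replicate check and no test. Each difference is between 2 single pooled samples, and the number of arrays limits its precision.

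RUNX proteins bind DNA through the Runt domain together with the partner subunit CBFB. Runx2 is required for osteoblast formation, and without it mouse molars stop developing at about the cap stage. Sp7 (osterix), a zinc finger factor, acts downstream of Runx2 in bone, while Sox9, an HMG-box factor, directs cartilage formation and is also found in epithelia and neural crest. Runx1 is best known from blood formation, and Runx3 from sensory neurons, lymphocytes and epithelia.

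Runx1 and Runx3 are each transcribed from a distal and a proximal promoter, and the reference windows of the RUNX genes share a pair of RUNX motifs, shown here because their levels are described next. The windows came from RefSeq (GRCm38.p6) and span 250 bases before to 50 after a transcript's start. There were 2 windows for Runx1, 2 for Runx3 and 1 for Runx2. These are the windows listed in the reference, which need not cover every promoter of a gene. The motif TGTGGT was searched on both strands, where its reverse complement reads ACCACA, and capitals mark its matches in each site, printed 5′ to 3′ on the gene's strand.
Runx1 distal promoter, chr16:92826029-92826050, minus strand: aacaACCACAgaACCACAagtt
Runx2 promoter, chr17:44814587-44814608, minus strand: aacaACCACAgaACCACAagtg
Runx3 distal promoter, chr4:135120507-135120528, plus strand: ctcaACCACAgaACCACAaggc
Counted from the transcript's start, the 2 matches began at 29 and 37 in Runx1, at 24 and 32 in Runx2 and at -134 and -126 in Runx3. Runx2 held a further match at -80. The distal and proximal starts lie 128745 bases apart in Runx1 and 31900 in Runx3. A single TGTGGT occurred in 16.8% of 32851 promoter windows of the same length. This paired form, a pair of ACCACA copies with 2 bases between them on either strand, occurred in 0.0213%, which is 7 windows, of which 3 belonged to Runx1, Runx2 and Runx3 and 1 to a neighbouring gene whose window overlaps that of Runx3. The proximal windows of Runx1 and Runx3 held 0 matches to TGTGGT. A match is a description of these letters, and which promoter's transcripts the probe sets read was not tested.

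The deposited values are ratios to the middle of each probe set's 3 values, and a signal level was recovered from them as the smallest one that explains the ratios, so a level can be too low but not too high. As deposited, ratios between stages do not depend on this step. A floor of 82.0, the median of all recovered signals, separated measured from dim probe sets. A comparison needed a value of 82.0 or more on 1 of its 2 arrays, and a value under it was set to it, which turns the fold into a lower bound written "at least". The call was a fold of 2 or more. Of the 12 probe sets 9 were at or above the floor on at least 1 array. The 3 below it on every array were 1 each of Runx1 (1427650_a_at), Runx3 (1421467_at) and Sox9 (1433889_at). Levels were also used to pick each gene's brightest probe set and to sum marker lists. The floor, the bounds and these uses all rest on recovered levels that can be too low. A probe set read as below the floor may therefore lie above it.

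**Figure D1:**
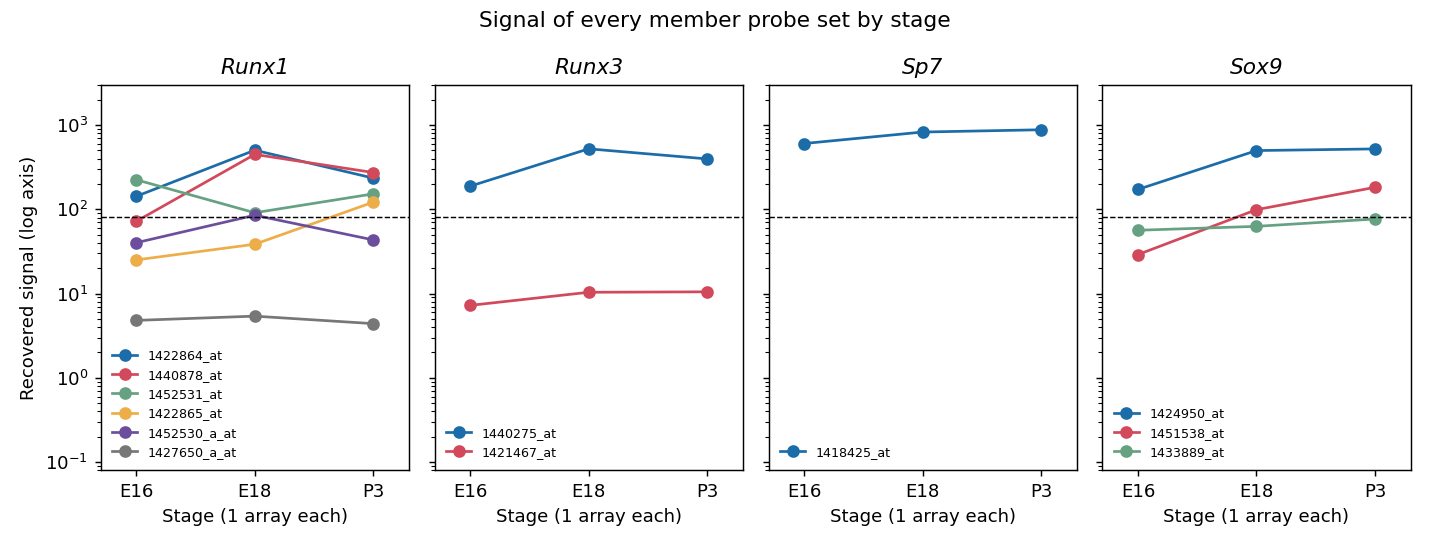
Recovered signal (log axis) of every member probe set at E16, E18 and P3, 1 array each, 1 panel per gene and 1 line per probe set, with the floor of 82.0 dashed. The brightest Runx1, Runx3 and Sox9 lines are lowest at E16, while the Sp7 line lies between 605 and 881 at all stages.

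By their brightest probe sets, Runx1, Runx3 and Sox9 were 2.78-fold to 3.53-fold higher at E18 than E16, whereas Sp7 stayed under 2-fold in all comparisons. Sox9 was as high at P3 as at E18, and Runx1 and Runx3 were lower at P3 than E18 by those probe sets, Runx1 by 2.14-fold and Runx3 by 1.32-fold. In all, 4 of 8 measured member probe sets were at least 2-fold higher at E18 than E16, where 7.65% of all probe sets were, and 1 was lower, where 7.95% were. At P3 against E16, 4 of 8 were higher (6.03% of all probe sets) and 0 lower (14.4%). At P3 against E18, 0 of 9 were higher (3.74%) and 1 was lower (10.5%). Both comparisons with E16 use the same E16 array, so they are not independent of each other. Probe sets of 1 gene share their target, and a probe set that was measured only through its high stage could not come out lower there.

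Sp7, needed for bone formation and expressed in young odontoblasts, was measured by 1 probe set (1418425_at) at signals of 605, 828 and 881 at E16, E18 and P3. All 3 values lay well above the floor. Sp7 was 1.37-fold higher at E18 than E16, 1.06-fold higher at P3 than E18 and 1.46-fold higher at P3 than E16. Error between arrays or between pools could not be measured with 1 array per stage. As a rough scale only, the spread between probe sets of 1 gene on the same arrays was computed over 3742 genes. Its pooled SD was 0.61 log2 units (1.53-fold) for E18 against E16, 0.53 for P3 against E18 and 0.61 for P3 against E16. It holds no error that all probe sets of an array share. The Sp7 differences of 0.45, 0.09 and 0.54 log2 units as deposited were each smaller than that spread, but for P3 against E16 quantile normalization gave 0.94 and median scaling 0.84, both larger than it.

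Sox9 was higher at both later stages by its 2 measured probe sets. Probe set 1424950_at read 172 at E16, 499 at E18 and 522 at P3. Its signal was 2.89-fold higher at E18 than E16 and 3.03-fold higher at P3 than E16, with 1.05-fold between P3 and E18. Probe set 1451538_at read 29.1, 99.2 and 183, so E16 lay below the floor and P3 was the highest. At P3 it exceeded E16 by at least 2.23-fold, with a deposited ratio of 6.28, and 1.84-fold higher at P3 than E18. Between E18 and E16 its bound was 1.21-fold and its deposited ratio 3.41, so whether it passed 2-fold there depended on the floor. The probe sets thus differ in the second step, flat in one and upward in the other. The third, 1433889_at, read 56.5, 62.9 and 76.8, all below the floor, in the same order of stages.

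Runx3 was measured by 1440275_at, which read 189 at E16, 523 at E18 and 397 at P3. It was lowest at E16 and highest at E18. The signal was 2.78-fold higher at E18 than E16 and 2.11-fold higher at P3 than E16. It was 1.32-fold lower at P3 than E18, a difference smaller than the spread between probe sets of 1 gene. The other Runx3 probe set, 1421467_at, read 7.25, 10.4 and 10.5, near the bottom of the range, and gives no measured difference.

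Runx1 had the most probe sets and they did not move together. Probe sets 1422864_at and 1440878_at were highest at E18. The first read 143, 504 and 235 at E16, E18 and P3, 3.53-fold higher at E18 than E16 and 2.14-fold lower at P3 than E18. The second read 72.1, 449 and 274, at least 5.48-fold higher at E18 than E16 (deposited ratio 6.23), at least 3.34-fold higher at P3 than E16 and 1.64-fold lower at P3 than E18. Quantile normalization and median scaling moved the P3 against E18 difference of 1422864_at, -1.10 log2 units as deposited, to inside 2-fold, and the range over all alternatives was -1.10 to -0.91.

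Another Runx1 probe set, 1452531_at, ran the other way, with 225 at E16, 91.2 at E18 and 153 at P3. It was 2.46-fold lower at E18 than E16, 1.67-fold higher at P3 than E18 and 1.47-fold lower at P3 than E16. Probe set 1422865_at read 25.1, 38.6 and 122 and was above the floor at P3 alone. P3 exceeded either earlier stage by at least 1.48-fold, with deposited ratios of 4.85 against E16 and 3.16 against E18. Probe set 1452530_a_at read 40.2, 85.2 and 43.4, highest at E18 but barely above the floor there, and 1427650_a_at read 4.81, 5.40 and 4.40. Of 4 Runx1 probe sets measured between E18 and E16, 2 were at least 2-fold higher, 1 was lower and 1 had a bound of 1.04-fold, so no single Runx1 value stands for the gene. The files do not say which exons the probes read, and the cause of the disagreement was not tested.

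**Figure D2:**
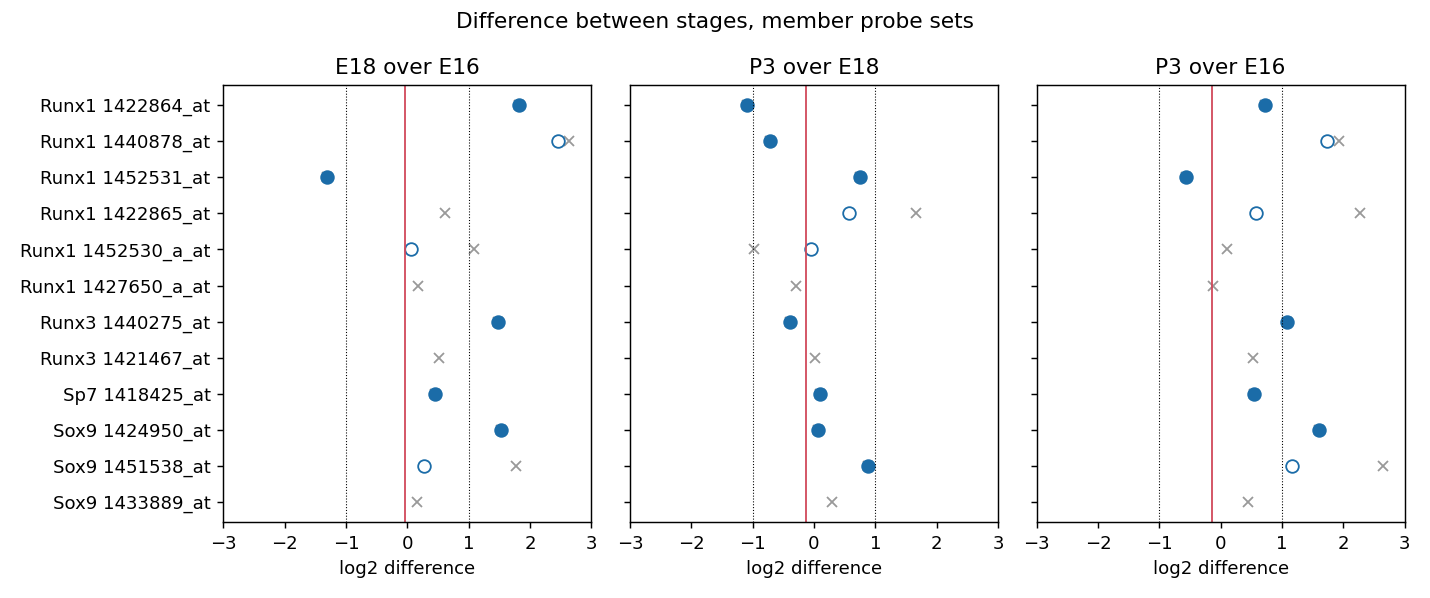
Log2 difference of each member probe set for E18 over E16, P3 over E18 and P3 over E16. Filled circles have both arrays at or above the floor, open circles are lower bounds, crosses are deposited ratios (hidden behind filled circles), dotted lines mark 2-fold and the red line the median of all probe sets. For E18 over E16, 4 circles lie right of the upper line and that of Runx1 1452531_at lies left of the lower one.

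Technical readings differed between the arrays, and the E18 array was highest in the spike-in, actin and Gapdh readings. At E18 the 18 hybridisation spike-in probe sets had a median of 2.17 times those of the E16 array, and P3 was at 0.45 times E18 and 1.04 times E16. The actin signal near the 3′ end was set over that near the 5′ end, a ratio which depends on RNA integrity and labelling. It was 3.87 times as high at E18 as at E16, 2.46 times at P3 as at E16 and 0.63 times at P3 as at E18. For Gapdh it was 1.42 times as high at E18 as at E16, 0.36 times at P3 as at E16 and 0.25 times at P3 as at E18. The median log2 difference over all probe sets was -0.04 for E18 against E16, -0.13 for P3 against E18 and -0.15 for P3 against E16. The part of these readings in the Runx1, Runx3 and Sox9 differences was not tested.

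Markers of the labelled tissue were present, with all 8 papilla mesenchyme markers over the floor at each stage, and markers of neighbouring tissues were present too. Of 11 dental epithelium markers with a probe set, 9 reached the floor at E16, 10 at E18 and 10 at P3, and their summed signal was 8828, 25489.9 and 14056. All 10 measured between E18 and E16 were at least 2-fold higher at E18, with a median of 1.67 log2 units, and 7 of 11 were lower by 2-fold or more at P3 than E18. The enamel matrix genes Amelx (4.14-fold) and Enam (at least 11.4-fold) were the 2 that were higher by 2-fold or more at P3 than E18. In the papilla mesenchyme list the summed signal was 11605, 5381 and 8075, with 6 of 8 at least 2-fold lower at E18 than E16. At P3 against E16, 6 of 8 were at least 2-fold lower and 1 higher (Vim, with 1320, 1981 and 3749). At P3 against E18, 1 was higher (Msx1, 2.31-fold) and 0 lower. Runx1 probe sets 1422864_at and 1440878_at and Runx3 1440275_at had their highest value at E18. So did the epithelial sum and the sum of osteoblast markers (3027, 5519.8 and 2741 at E16, E18 and P3). Within the osteoblast sum Panx3 gave 798, 3738 and 1863, whereas Ibsp fell, with 1183, 486 and 335. Of 5 osteoblast markers measured between E18 and E16, 2 were at least 2-fold higher at E18 and 1 was lower. Sox9 1424950_at was level between E18 and P3. In tissue RNA, fewer cells of a type and less RNA per cell cannot be told apart. The part of epithelium or osteoblasts in these differences was not tested.

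Runx1 and Runx3 are also active in blood-derived cells, whose markers had a higher summed signal at later stages. The 16 macrophage and leukocyte markers summed to 3430.2, 6368 and 9741 at E16, E18 and P3, and 8, 12 and 14 of them were at or above the floor. At P3 against E16, 6 of 14 measured were at least 2-fold higher, 0 were lower and 8 were under 2-fold. At E18 against E16 it was 4 of 12 higher and 0 lower, and at P3 against E18 2 of 14 and 0. From that list Itgam and Aif1 lay below the floor on every array. The sum was highest at P3, the only stage at which Runx1 1422865_at passed the floor. Runx1 1422864_at and 1440878_at and Runx3 1440275_at were lower at P3 than E18, and Runx1 1452531_at was highest at E16. Endothelial markers summed to 3913, 1945 and 2043, with Pecam1 and Tie1 below the floor at every stage. Of the 6 glial and neural crest markers with a probe set, S100b, Foxd3 and Cdh19 were below the floor throughout. The 6 summed to 393, 343 and 830.0, of which Fabp7 gave 58.9, 73.5 and 532 and Sox10 234, 128 and 212. The part of these cells in the member values was not tested.

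**Figure D3:**
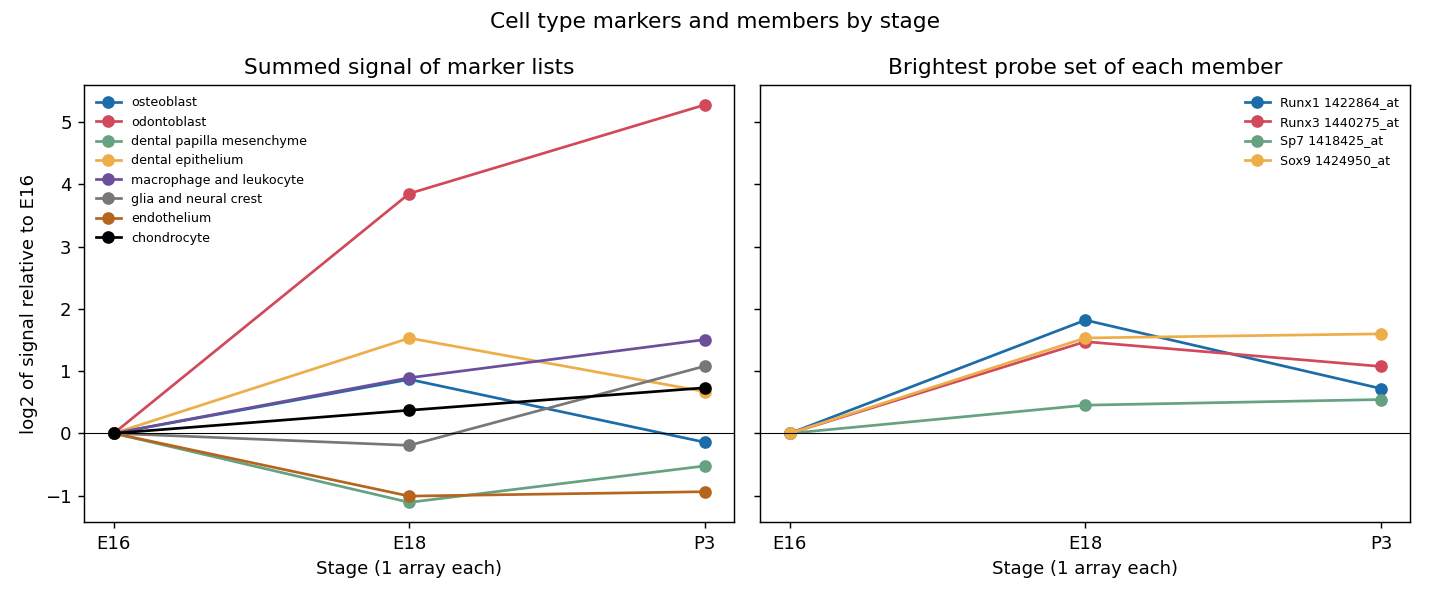
Log2 of signal relative to E16 by stage, 1 array each. On the left are the summed signals of 8 marker lists, on the right the brightest probe set of each member. The epithelial and osteoblast sums and Runx1 and Runx3 peak at E18, Sox9 is 3.03-fold above E16 at P3, and the odontoblast sum climbs throughout. Panx3 alone gives 3738 of the osteoblast sum of 5519.8 at E18.

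Partners of RUNX proteins went both ways between stages. Cbfb, the gene of the partner subunit shared by RUNX proteins, differed by at most 1.12-fold between any pair of stages, with signals of 1567, 1459.9 and 1633. Of 17 measured partners and cofactors 2 were higher by 2-fold or more at P3 than E16 and 4 lower, against 6.56% and 15.6% of all genes, each gene read by its brightest probe set. The list median was -0.07 log2 units beside -0.17 for all genes, and turned to 0.17 and 0.22 with quantile normalization and median scaling. The corepressor gene Tle1 was 5.10-fold lower, with a log2 difference of -0.98 by its other probe set, and its relative Tle2 was 3.13-fold higher. Ep300, a histone acetyltransferase coactivator, was 2.72-fold higher. The BMP signal transducers Smad1 and Smad5 were 2.86-fold and 2.75-fold lower, but other probe sets gave log2 differences of -0.44 to 0.32 for Smad1 and -0.56 to -0.37 for Smad5, and Yap1, a Hippo pathway coactivator, was 2.09-fold lower.

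At E18 against E16, 3 of the 17 were at least 2-fold higher and 2 lower, where 8.1% of all genes were higher and 8.13% lower. Atf4, which cooperates with RUNX2 in osteoblasts, was 3.25-fold higher by its brightest probe set, while another gave a log2 difference of -0.14. The other 2 were the transcription factor genes Maf and Dlx5 (2.20-fold and 2.10-fold). Other Maf probe sets gave log2 differences of 0.60 to 3.56. The lower ones were Tle1 (3.20-fold) and Zfp521 (2.33-fold), which encodes a zinc finger corepressor of RUNX2. Their other probe sets gave log2 differences of -0.59 (Tle1) and -0.66 (Zfp521), under 2-fold. At P3 against E18, 1 was higher (Tle2, 2.47-fold) and 1 lower (Atf4, 2.26-fold), where 4.07% of all genes were higher and 11.8% lower.

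Relatives and partners of SOX9 and SP7 were mostly within 2-fold between P3 and E16, where 0 of 15 passed it upward and 1 downward, beside 6.56% and 15.6% of all genes. Their median was -0.27 log2 units as deposited and 0.03 and 0.02 after quantile normalization and median scaling. At E18 against E16, 2 of 14 passed upward and 2 downward (8.1% and 8.13% of all genes), and at P3 against E18, 0 of 15 upward and 1 downward (4.07% and 11.8%). The gene lower at P3 than E16 was Sox5, a SOX9 partner in cartilage, which had 308, 126 and 40.6 by its brightest probe set. By that probe set Sox5 was at least 3.76-fold lower at P3 than E16. Its other probe sets gave log2 differences of -1.37 to -0.34 for P3 over E16 and -0.99 to 0.74 for E18 over E16. The other partner, Sox6, had 105, 115 and 119.9, a difference of at most 1.14-fold by its brightest probe set, while others gave log2 differences of 0.84 to 0.93 for E18 over E16 and -0.84 to -0.37 for P3 over E18. Sp6 (epiprofin), an SP factor of dental epithelium, was 2.03-fold higher at E18 than E16 and 1.77-fold lower at P3 than E18. Nfib, a nuclear factor of developing mesenchyme and epithelia, was 3.29-fold higher and then 5.28-fold lower at those steps, with other probe sets giving log2 differences of -1.06 to 1.63 and -1.76 to -0.08. The related gene Nfia was 2.06-fold lower at E18 than E16, but its other probe sets gave -0.38 to 0.94. Sp1 was 1.97-fold lower at P3 than E16, but its other probe sets gave -0.25 to 0.35. Sox10, a factor of neural crest and glia, differed by its brightest probe set by at most 1.83-fold.

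Bone and dentin genes associated with RUNX2 and SP7 were mostly higher at P3 than E16, with Sp7 itself within 2-fold. Of 16 measured, 10 passed 2-fold upward at P3 against E16 and 2 downward, beside 6.56% and 15.6% of all genes, and the median was 2.27 log2 units. At E18 against E16 it was 5 of 16 upward and 2 downward (8.1% and 8.13% of all genes), and at P3 against E18 8 of 13 upward and 3 downward (4.07% and 11.8%). The 3 were Dmp1 (4.75-fold), Ifitm5 (2.90-fold), which encodes a membrane protein of osteoblasts, and the channel gene Panx3 (2.01-fold). At E16 the floor was reached by 11 of the 17 that had a probe set, and the remaining ones had no room to be called lower at P3. The dentin precursor gene Dspp was at least 238-fold higher and the mineralisation regulator Phex at least 50.6-fold, where its other probe set gave 0.61 log2 units. Dmp1, an acidic matrix protein gene, had 15.6, 3720.0 and 782 at E16, E18 and P3 by its brightest probe set. By that probe set it was at least 45.4-fold higher at E18 than E16 and at least 9.54-fold at P3 against E16. Other Dmp1 probe sets gave log2 differences of 0.86 to 4.73 for E18 over E16 and 2.81 for P3 over E16. The collagen-binding Fmod was 24.6-fold and the vitamin D receptor gene Vdr at least 11.1-fold higher at P3 than E16. Col1a1 was at least 81.1-fold higher by the brighter probe set but 1.03 log2 units by the other.

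Ibsp, a bone sialoprotein gene often used as an osteoblast marker, ran the other way with 1183, 486 and 335 at E16, E18 and P3, 3.53-fold lower at P3 than E16, and its other probe set gave a bound of -0.65 log2 units. Mmp13, a collagenase gene of bone and cartilage, was at least 2.27-fold lower. Bglap, Bglap2 and Phospho1 had no probe set listed under their symbol alone, and Sost was below the floor at every stage. The osteoblast markers summed to 3027, 5519.8 and 2741, of which Panx3 gave 798, 3738 and 1863. The odontoblast markers summed to 685, 9889.5 and 26553.

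**Figure D4:**
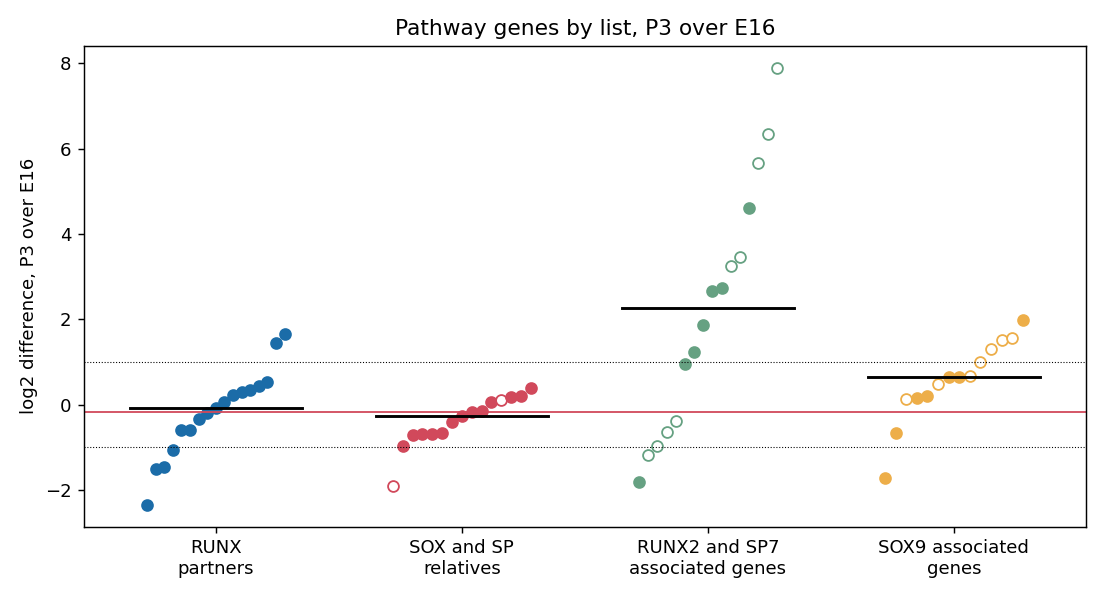
Log2 difference between P3 and E16 for every measured gene of 4 lists, by brightest probe set. Open circles are bounds, black bars list medians, the red line the median of all genes and dotted lines 2-fold. The RUNX2 and SP7 associated genes have a median of 2.27, the SOX9 associated genes 0.64, and the other lists lie near the red line.

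Cartilage genes associated with SOX9 were dim at E16, where 7 of 21 were at or above the floor, against 9 at E18 and 14 at P3. Of 14 measured between P3 and E16, 4 passed 2-fold upward and 1 downward, beside 6.56% and 15.6% of all genes, and the median was 0.64 log2 units. At E18 against E16, 3 of 9 passed it upward and 1 downward (8.1% and 8.13%), and at P3 against E18, 4 of 14 upward and 0 downward (4.07% and 11.8%). Col27a1, a fibrillar collagen gene, was 3.92-fold higher at P3 than E16 and 3.59-fold at E18 against E16, with 602, 2161 and 2363. Its other probe set was highest at E18, with 2.27 log2 units for E18 over E16 and -0.45 for P3 over E18. Col11a2, Col9a2 and the proteoglycan gene Acan were at least 2.97-fold, 2.85-fold and 2.45-fold higher at P3, and Col11a1 was 2.72-fold higher at P3 than E18. Pth1r, the parathyroid hormone receptor gene, was 3.30-fold lower at P3 than E16.

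The defining cartilage collagen gene Col2a1 had 50.5, 64.6 and 89.1 and passed the floor only at P3. Matn1, Matn3, Cnmd, Snorc, Col10a1, Scrg1 and Chad were below it at every stage. The list summed to 4683, 6056 and 7776 at E16, E18 and P3. Of this, Col27a1 gave 602, 2161 and 2363 and Col11a1 gave 1496, 861 and 2344. The part of cartilage cells in the Sox9 values was not tested.

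Across 9860 other genes with a signal of at least 82.0 at every stage, those closest to each member in their pair of log2 differences were found over 3 samples, which sets a weak standard. Runx1 (1422864_at) was closest to Mbd2, Lrrc8d and Rbis, at distances of 0.08 to 0.09 log2 units. For Runx3 they were Cdc42bpg, Tspyl1 and Kcnq1ot1 (0.01 to 0.04), for Sp7 Otud7a, 4933402N03Rik and Plekhm3 (0.02 each), and for Sox9 Lum, N6amt1 and Rps7 (0.06 to 0.10). Within 0.25 log2 units lay 24 genes for Runx1, 60 for Runx3, 27 for Sox9 and 396 for Sp7, whose nearly level course many genes share.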

How the data were processed

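RNA from pooled dental papillae was labelled by a 2-cycle protocol and hybridised to 1 array per stage, per the labels' protocols. The deposited values are ratios, and the submitters' processing notes name GCOS with no version. Its scaling and any filters were not given in these sources. In 90.4% of 45101 probe sets the middle value was 1 within 1e-06. Signals were recovered as the smallest whole multiples of 0.1 units that fit all ratios within a relative 3e-07, after each array's step size was found from the other probe sets (0.718 for E16 and 1.08 for E18, relative to P3). The recovery was tested on simulated data. The comparison had been planned for signals, and the recovered signals and deposited ratios were used for it. Control probe sets (64) and 1 without a solution were left out. Values below the floor were set to it before log2. Names came from the platform annotation (34958 probe sets with 1 symbol, 932 with several, 9160 not listed). All 12 member symbols matched RefSeq by Entrez ID, with 0 changed.

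The members and gene lists were chosen with earlier results of these data known. All member probe sets are described. Of each list, the 6 measured genes with the largest difference in any comparison are named, plus Cbfb, Sox5, Sox6, Sp6, Bglap, Ibsp, Col2a1 and Acan. Yap1, Maf, Dlx5, Zfp521, Mmp13, Ifitm5, Panx3, Amelx, Enam and members below the floor were named after their values were seen. Alternatives were quantile normalization, median scaling, a floor of 40, no floor, leaving out probe sets named _s_at, _x_at or _a_at, and the median over a gene's probe sets. Python 3.11.15, numpy 2.4.6, pandas 2.3.3 and numba 0.67.0 were used.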

Additional observations from a re-analysis of the deposited data

How the results depend on the processing

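With 1 array per stage no replicate could be left out. No paired analysis was possible because each stage has 1 sample. Over the alternatives no member probe set changed sign. At P3 against E18, the count of member probe sets at least 2-fold higher was 0 as reported and 1 after median scaling (Sox9 1451538_at), with a floor of 40 and with no floor (Runx1 1422865_at in both). The count lower, 1 as reported (Runx1 1422864_at), was 0 after quantile normalization and after median scaling. At E18 against E16, the count higher was 4 and became 6 with a floor of 40 or no floor; at P3 against E16 it was 4 and became 5 with either, and 5 after median scaling. Bounds set by the floor moved most, with Sox9 1451538_at at E18 against E16 between 0.25 and 1.77 log2 units and Runx1 1422865_at at P3 against E16 between 0.57 and 2.28. The P3 against E16 medians stayed between 1.76 and 2.56 for RUNX2 and SP7 associated genes and 0.57 and 0.88 for SOX9 associated genes. Those of RUNX partners (-0.45 to 0.22) and SOX and SP relatives (-0.27 to 0.03) turned positive with quantile normalization and median scaling, under which the all-gene median was 0.02 and 0.09 in place of -0.17.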

Other observations

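The corepressor genes Runx1t1, Cbfa2t2 and Cbfa2t3, whose products form fusion proteins with RUNX1 in leukaemia or are their relatives, were looked at after their values were seen. Of 13 probe sets 11 were at or above the floor on at least 1 array. Runx1t1 1440310_at had 185, 84.4 and 69.3 at E16, E18 and P3, 2.19-fold lower at E18 than E16 and at least 2.26-fold lower at P3 than E16, whereas Runx1t1 1437784_at had 189.9, 288 and 231, 1.51-fold higher at E18 than E16. No Cbfa2t2 or Cbfa2t3 probe set passed 2-fold in any comparison.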
